A study of Drosophila melanogaster with 78 samples.

Results

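Ageing of the brain was followed in dilp 2-3,5 mutant flies, which lack the insulin-like peptide genes dilp2, dilp3 and dilp5, by total RNA sequencing at days 10, 30 and 50. The series holds 78 samples, and all 9 libraries labelled as dilp 2-3,5 brain were taken, 3 at each age. They are set beside the 9 libraries of wDah brain (white Dahomey, an outbred wild-type strain that carries the bacterium Wolbachia) at the same ages. The mutations had been backcrossed into wDah, so both genotypes share that background, and brains came from once-mated females dissected by hand. The 3 libraries of a group are biological replicates according to the methods. The day 10 samples were generated separately from those of days 30 and 50, so that in any contrast with day 10 age and batch cannot be told apart. The contrast of day 50 with day 30 does not cross that split and is given first.

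Circular RNAs (circRNAs) arise when a splice donor is joined backwards to an upstream acceptor of the same transcript, which closes 1 or more exons into a ring without free ends. Having no ends, they escape the exonucleases that degrade linear mRNA, and they are known to be abundant in neurons, where they build up with age in flies and mammals. Insulin/IGF signalling acts through the insulin receptor and PI3 kinase to hold the transcription factor FOXO out of the nucleus, and flies with lowered signalling live longer. A circular read crosses the backsplice junction. Linear reads were counted at the same positions, and the methods describe them as linear spliced reads of the host gene. The ratio of the 2 counts thus sets a circle against the linear reads at its own ends. Some of these lie in RNAs other than mRNA, such as the RNA of the signal recognition particle given below.

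The junctions below belong to circles on which the results turn. CaMKI is the most abundant one. CG42402 had the smallest p among those with more circular reads at day 50 than at day 30, and did not pass the test. The others had among the smallest p for the change in ratio at day 50 against day 10, upward or, for pan, downward. Each sequence was read from the Release 6 genome on the strand of the gene, 5′ to 3′, as 15 bases of the circle's end followed by 15 bases of its start. The capitals mark the 5 bases on each side of the backsplice.
CaMKI chr4:449924-450509 (+): catcgtgatcTTAAGGTTCAgtgcaaatca
CG42402 chr3R:4093946-4095991 (+): acaaatgtcgCCCATCTTTActgtcggcca
alph chr3R:29597241-29597473 (+): gatcgaccatGTGAAACGAGatagagtcta
DAAM chrX:1309859-1316161 (-): aattagcaacAACAGTTGGAcaacccttcc
Caps chr4:1247102-1247238 (+): ccatatgcttCTTTGACGCAgataaagccc
CG34355 chr3R:23829957-23830329 (+): ggagtacacgGGCATCAGCCggacgagctc
pan chr4:94423-99475 (+): gtgcaaaccgTGCAGGAACCtggaagcaaa
In the genome each of these circles is preceded by AG and followed by GT, the bases of ordinary splice sites, as were 1170 of the 1194 circRNAs in the table (98.0%). Both ends lay at annotated exon ends of the same strand for 1072 (89.8%). An annotated start codon lay inside 401 (33.6%), and 168 (14.1%) were exactly 1 annotated exon.

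The libraries carried the mutation their labels state. The Ilp2 transcript (dilp2) was listed at 0.580 FPKM at day 10 and at 0 at both later ages in dilp 2-3,5 brain, whereas wDah brain had 388, 177 and 101 FPKM. FPKM counts fragments scaled by transcript length and library size, with 1 pooled value for each genotype and age. Neuronal and glial markers were present at every age in dilp 2-3,5 brain, with 367, 434 and 405 FPKM summed over 7 neuronal genes and 875, 1234 and 1150 FPKM over 8 glial genes at days 10, 30 and 50. Markers of tissue that borders the brain were present too. Photoreceptor genes summed to 1700, 698 and 682 FPKM at the 3 ages, and fat body genes, mostly yolk proteins, to 14810, 8280 and 6164 FPKM. Of the 9 photoreceptor genes 6 were higher at day 50 than at day 30, and 0 were higher at day 30 than at day 10. Of the 7 fat body genes 1, Rfabg, was higher at day 30 than at day 10, at 532, 1032 and 865 FPKM. Whether fewer cells of a type, less RNA per cell or, against day 10, the batch gave the lower sums cannot be told apart in these bulk samples. The w transcript (white, a pigment transporter, chosen after its values were seen) had 51.1, 80.7 and 194 FPKM in dilp 2-3,5 brain and 0.0121, 0.0695 and 0.210 FPKM in wDah brain.

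Per library, dilp 2-3,5 brain gave 16637 to 38812 circular reads and 103752 to 245298 linear reads over the 1194 circRNAs. The shallowest library was replicate 1 of day 30. Between 1044 and 1131 circRNAs had at least 1 read in a library. Rank correlations (Spearman, across circRNAs, which are not independent replicates) were 0.826 to 0.884 between day 30 and day 50 libraries, close to the 0.853 to 0.877 among day 50 libraries, and 0.674 to 0.735 between day 10 and day 30.

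Within the later batch, the brain of the mutant carried more circular RNA per linear read at day 50 than at day 30. The ratio of all circular to all linear reads was 0.222, 0.212 and 0.228 in the day 50 libraries, against 0.160, 0.178 and 0.210 in the day 30 libraries. All 3 day 50 libraries lay above all 3 day 30 libraries, and replicate 3 of day 30, at 0.210, came close to the lowest of day 50. The means were 0.221 ± 0.00850 at day 50 and 0.183 ± 0.0252 at day 30 (SD, n = 3 each), a ratio of 1.21. The two-sided exact permutation test gave p = 0.1, the smallest value that 3 against 3 libraries allow, so this design cannot reach 0.05. Summarized as the mean log2 ratio over circRNAs, the groups overlapped (difference 0.16, exact p = 0.3), and so did they as the median ratio (difference 0.0272, exact p = 0.4).

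At day 10 the ratio in dilp 2-3,5 brain was 0.180, 0.122 and 0.159, a mean of 0.154 ± 0.0293 (SD, n = 3). The day 50 mean was 1.43 times that of day 10 (exact p = 0.1), with no overlap, and the day 30 mean 1.19 times (exact p = 0.4), with overlap. In wDah brain the means were 0.131 ± 0.0213, 0.161 ± 0.0261 and 0.202 ± 0.0114 at days 10, 30 and 50 (SD, n = 3 each). Circular reads per library overlapped between the ages in the mutant, at 28949 to 36905 at day 50 and 30040 to 38751 at day 10. Linear reads did not overlap between day 50 (136771 to 166128) and day 10 (214691 to 245298), and those of day 30 (103752 to 217994) overlapped both. These are raw counts, not scaled for sequencing depth.

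**Figure D1:**
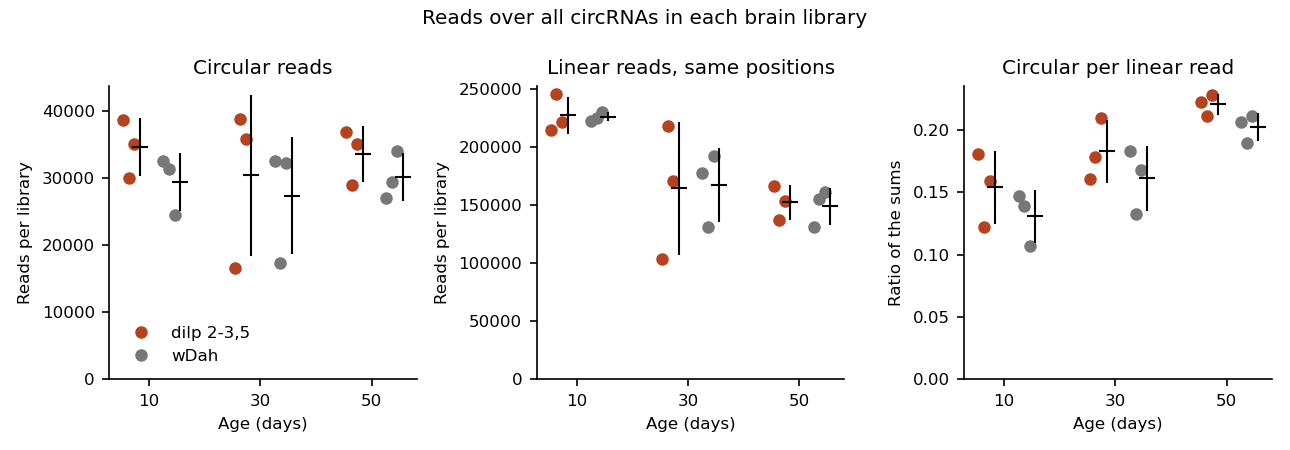
Circular reads, linear reads at the same positions and the ratio of their sums in each brain library (points), by age in days. Black marks show the mean and SD of 3 libraries, with dilp 2-3,5 left of wDah at each age. In dilp 2-3,5 the 3 day 50 ratios (0.212 to 0.228) lie above the 3 day 30 ratios (0.160 to 0.210).

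A large share of these linear reads lay at few positions. The 75 circRNAs that span 300 bases or less held 39.0 to 58.9% of the linear reads of a dilp 2-3,5 library and 1.81 to 4.60% of its circular reads. Some linear counts were nearly the same in every library. At the 119-base circle of 7SLRNA:CR32864, the RNA of the signal recognition particle, they were 4058, 4061 and 4058 at day 10, 4062, 4069 and 4070 at day 30 and 4062, 4059 and 4058 at day 50, so the ratio there carries no change in linear reads. At the 60-base entry of the same RNA they were 7739 to 7958 in 7 of the 9 libraries, and 5124 and 5999 in the others. Linear counts at such positions may be capped in the deposited table, which the sources used here do not state and which was not tested, and they enter the sums above. Without circRNAs with a linear count over 7000 the ratio was 0.297, 0.292 and 0.309 at day 50 and 0.235, 0.226 and 0.279 at day 30, without overlap (exact p = 0.1). Over circRNAs that span more than 300 bases, a summary chosen after seeing the data, the ratio was 0.435, 0.428 and 0.452 at day 50 and 0.373, 0.317 and 0.416 at day 30, again without overlap (exact p = 0.1).

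Circle by circle, none of the 1134 circRNAs tested changed its circular-to-linear ratio between day 50 and day 30 in edgeR's quasi-likelihood test with Benjamini-Hochberg adjustment (0% called). At an unadjusted p under 0.05 there were 42, of which 39 were higher at day 50, and DESeq2 called 0, with 17 under 0.05. The median log2 change was 0.19, and 744 of the 1134 lay above 0. That median rested in part on single libraries, at 0.08 without replicate 2 of day 30 (620 above 0) and 0.31 without replicate 3 of day 30 (827 above 0). Where circular and linear columns were scaled separately by TMM (trimmed mean of M values), which removes a shift shared by most circles, the median was 0.015. In 131 circRNAs (11.6%) every day 50 library lay above every day 30 library, and in 30 (2.65%) every one lay below.

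The 6 upward circles with the smallest p in this contrast had 24 to 102 circular reads each over the 9 libraries. Sap47, which encodes a synapse-associated protein, had 2, 1 and 3 circular reads at day 10, 0, 1 and 2 at day 30 and 4, 6 and 5 at day 50. All day 50 libraries of Sap47 stood above the rest, and the counting ratio of day 50 over day 30 was 6.04 (95% interval 1.69 to 32.8, counting error only). Its log2 change was 2.48 ± 0.75 (SE), with an adjusted p of 0.98 from edgeR. The other 5 upward circles by the same rank, with log2 values between 1.64 and 2.56, belong to sxc (O-GlcNAc transferase), Snap25 (a SNARE protein of synaptic vesicle fusion), CG31221, Eip78C (a nuclear receptor) and stumps (an FGF receptor adaptor). The 6 downward ones were CG42402, Lsd-2 (a perilipin of lipid droplets), mim, ACC (acetyl-CoA carboxylase), 5-HT2A (a serotonin receptor) and dlg1 (a synaptic scaffold). Of these the 511-base circle of CG42402 had 106 circular reads over the 9 libraries and that of ACC had 15. For ACC and dlg1 the day 50 libraries held 1 circular read in all, with counting ratios of 0.148 (95% interval 0.00319 to 1.24) and 0.146 (0.00320 to 1.17), and the log2 values of the others lay between -1.06 and -1.68. The adjusted p was 0.98 for each of these 12.

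None of the 6 most abundant circles was called in ratio at day 50 against day 30. CaMKI, a calcium/calmodulin-dependent kinase, gave the most circular reads over the 9 libraries. Its 586-base circle, which holds a start codon, had 1748, 1359 and 1357 circular reads at day 10, 2325, 4055 and 3843 at day 30 and 5498, 4205 and 4269 at day 50. As a share of all circular reads of a library these were 4.51, 4.52 and 3.87% at day 10, 14.0, 10.4 and 10.7% at day 30 and 14.9, 14.5 and 12.2% at day 50. The later ages stood apart from day 10, and the lowest share at day 50 (12.2%) lay below the highest at day 30 (14.0%). Relative to linear reads the log2 change of CaMKI was 0.33 ± 0.19 (SE; adjusted p = 0.98, edgeR) for day 50 against day 30 and 0.88 ± 0.19 (adjusted p = 0.00351) against day 10. Counted alone, circular reads of CaMKI rose by 1.83 ± 0.15 (adjusted p = 1.38e-13) and linear reads by 1.56 ± 0.22 (adjusted p = 0.000155) against day 10. The smaller CaMKI circle, of 268 bases with the same donor, showed a log2 ratio of -0.20 ± 0.22 (adjusted p = 0.576) against day 10.

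The next in rank were mbl (muscleblind, a splicing regulator), Dbp80 (a DEAD-box helicase of mRNA export), scro (a homeobox factor), Ca-alpha1D (the L-type calcium channel) and p120ctn (a catenin). Dbp80 had 1356, 1011 and 1310 circular reads at day 10, 423, 867 and 898 at day 30 and 763, 504 and 819 at day 50. Every later library held fewer reads of the 353-base Dbp80 circle than any day 10 library. Its circular reads fell by 0.64 ± 0.15 (log2 ± SE; adjusted p = 0.000842, edgeR) at day 50 against day 10, and its log2 ratio to linear reads was 0.14 ± 0.20 (adjusted p = 0.689). Counted alone, scro and Ca-alpha1D rose in both kinds of read at day 50 against day 10. For scro the rise was 0.58 ± 0.18 in circular and 1.02 ± 0.26 in linear reads (adjusted p = 0.0150 and 0.00887). For Ca-alpha1D it was 0.69 ± 0.15 and 1.08 ± 0.21 (adjusted p = 0.000477 and 0.00158). Each kind of read was scaled on its own by TMM, so these values do not give the change in ratio. The log2 ratio to linear reads at day 50 against day 10 was 0.19 ± 0.19 for scro (adjusted p = 0.55). For Ca-alpha1D it was 0.21 ± 0.19 (adjusted p = 0.505), and neither passed. For mbl, Dbp80, scro, Ca-alpha1D and p120ctn the log2 ratio of day 50 to day 30 lay between -0.09 and 0.19, with standard errors of 0.19 or 0.20.

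Counted alone, 0 of 1135 circRNAs differed in circular reads between day 50 and day 30 (0% called), 77 had an unadjusted p under 0.05, and DESeq2 called 0, with 34 under 0.05. Linear reads alone gave 0 of 1189 (0% called) with edgeR and 92 under an unadjusted 0.05, whereas DESeq2 called 19, of which 18 were lower at day 50. The 2046-base circle of CG42402 had the smallest p among those higher at day 50. It had 366, 227 and 294 circular reads at day 10, 86, 259 and 111 at day 30 and 292, 263 and 248 at day 50. Before scaling for depth, replicates 1 and 3 of day 30 were low and replicate 2 reached the day 50 range. Replicate 1 was the shallowest library, with 16637 circular reads in all, against 38812 and 35837 in replicates 2 and 3. The log2 change of CG42402 was 0.67 ± 0.19 in circular reads (adjusted p = 0.302) and 0.74 ± 0.22 in linear reads (adjusted p = 0.307), which left its ratio at 0.14 ± 0.25. In wDah brain the same circle had 224, 185 and 166 reads at day 10, 130, 93 and 131 at day 30 and 174, 205 and 267 at day 50. The gene's summed level was 31.3, 37.8 and 50.8 FPKM in dilp 2-3,5 brain and 22.5, 29.0 and 36.1 FPKM in wDah brain at the 3 ages.

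Among linear reads the yolk protein gene Yp3 had one of the smallest p values of those lower at day 50. At its 70-base entry it had 3316, 1877 and 3082 linear reads at day 10, 797, 1925 and 1241 at day 30 and 532, 628 and 568 at day 50, and its circular reads were 0 in 6 of the 9 libraries. The day 50 counts of Yp3 lay under all others (log2 -1.18 ± 0.29 against day 30, adjusted p = 0.213, edgeR). Its FPKM were 4863, 2213 and 1131. Yolk proteins are made by fat body and ovary, and the part of such tissue in the brain samples was not tested.

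Against day 10, 168 of 1134 circRNAs changed their circular-to-linear ratio at day 50 (14.8% called), 159 higher (14%) and 9 lower. At day 30 against day 10 there were 108 (9.52%), 94 higher (8.29%) and 14 lower. The median log2 ratio of all circles was 0.52 for day 50 and 0.36 for day 30. Without replicate 2 of day 10 these medians were 0.28 and 0.11, without replicate 1 of day 10 the day 30 median was 0.56, and without replicate 3 of day 30 it was 0.22. Scaling circular and linear columns separately moved the first median to -0.09 and the split to 81 higher of 169 called, and at day 30 to 63 higher of 142, so that the direction of these calls rests on the shared shift. In 357 circRNAs (31.5%) every day 50 library lay above every day 10 library, and in 38 (3.35%) below. Of the 159 with a higher ratio, circular reads counted alone were called up in 78 and down in 1. Linear reads counted alone were called down in 48 and up in 26, and neither was called in 40. These classes overlap. The counts taken alone were scaled by TMM and the ratio was not, so they do not split the ratio calls into parts.

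**Figure D2:**
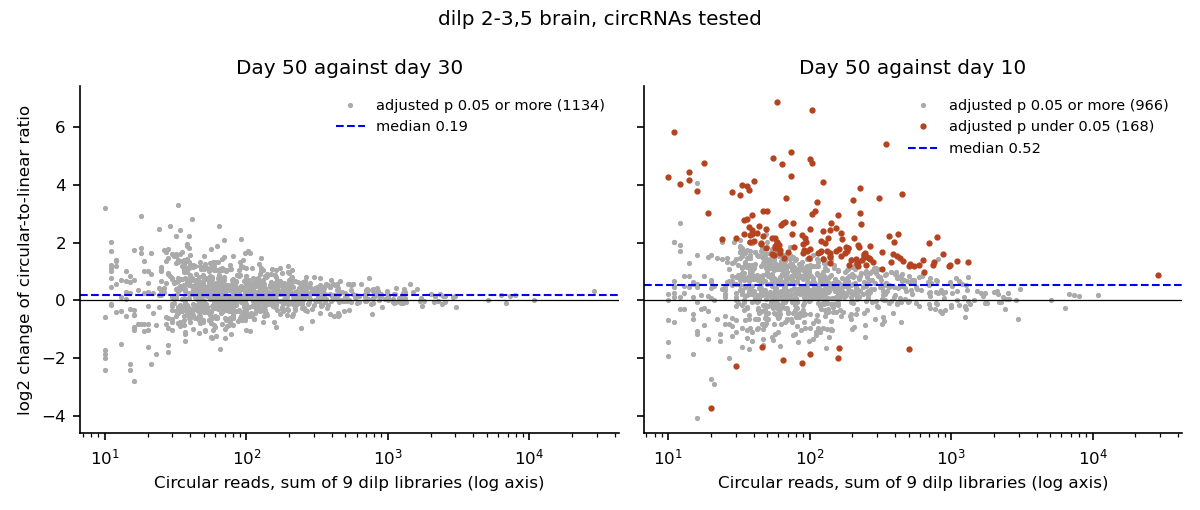
The log2 change of the circular-to-linear ratio in dilp 2-3,5 brain against the circular reads of the circle summed over 9 libraries (log axis), 1 point per circRNA, for day 50 against day 30 (left) and against day 10 (right); coloured points have an adjusted p under 0.05. None of 1134 points is coloured on the left and 168 on the right, and the dashed medians stand at 0.19 and 0.52.

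Several circles near the floor of counting at day 10 were plain at days 30 and 50. DAAM, a formin that assembles actin, had 0, 1 and 0 circular reads at day 10, 3, 23 and 22 at day 30 and 16, 19 and 19 at day 50. The single circular read of DAAM at day 10 stood against 253 linear reads, which gave a counting ratio of 139.5 for day 50 over day 10 (95% interval 23.3 to 5686, counting error only; adjusted p = 4.18e-06, edgeR). Its linear reads changed by -0.56 ± 0.19 on the log2 scale (adjusted p = 0.0310). alph, a protein phosphatase of the PP2C class, had 2, 1 and 0 circular reads at day 10, 45, 57 and 57 at day 30 and 81, 35 and 67 at day 50. The counting ratio of alph for day 50 over day 10 was 50.1 (interval 16.4 to 249.6; adjusted p = 4.18e-06).

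Caps, which primes dense-core vesicles for release, and CG34355 showed the same order of ages. The 137-base Caps circle, a single exon, had 1, 2 and 2 circular reads at day 10, 2, 16 and 24 at day 30 and 26, 15 and 15 at day 50 (log2 ratio 4.76 ± 0.55, adjusted p = 4.18e-06). The 373-base circle of CG34355 had 6, 3 and 2, then 15, 36 and 36, then 49, 37 and 42 at the same ages (3.91 ± 0.47, adjusted p = 6.45e-06). For day 50 against day 30 the log2 ratios were 0.60 ± 0.41 for Caps and 0.32 ± 0.38 for CG34355 (adjusted p = 0.984 for each), which did not pass. In wDah brain alph had 3, 4 and 0, then 44, 51 and 37, then 83, 67 and 64 circular reads, and DAAM 1, 0 and 0, then 16, 7 and 19, then 16, 18 and 18. The step between day 10 and the later ages was thus present in both genotypes.

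A2bp1, the fly Rbfox splicing regulator, had a pair of circles that share a start and differ in length, and so share linear reads in part. The 2006-base circle had 32, 7 and 16 circular reads at day 10, 65, 132 and 140 at day 30 and 143, 107 and 149 at day 50. The 1157-base circle of A2bp1 had 4, 0 and 3, then 26, 67 and 61, then 72, 36 and 39. Against day 10 their log2 ratios at day 50 were 2.21 ± 0.41 (adjusted p = 0.000912) and 3.53 ± 0.53 (adjusted p = 8e-05). Linear reads at these A2bp1 positions rose by 1.48 ± 0.19 and 1.54 ± 0.19.

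In the other direction, pan, the TCF factor of Wnt signalling, had 131, 115 and 123 circular reads of a 5053-base circle at day 10, 10, 33 and 17 at day 30 and 25, 15 and 32 at day 50. No later library of pan came near the day 10 counts, while its linear reads changed by 0.12 ± 0.18 on the log2 scale (adjusted p = 0.636). Its ratio fell by 1.69 ± 0.30 (SE; adjusted p = 0.000676, edgeR) at day 50. A shorter pan circle of 542 bases had 96, 77 and 70 reads at day 10, 49, 139 and 126 at day 30 and 77, 37 and 102 at day 50, and its log2 ratio against day 10 was -0.11 ± 0.28. Of the 10 pan circles tested, 2 longer ones were called higher in ratio at day 50, a 22295-base circle by 1.20 ± 0.27 (adjusted p = 0.00430) and a 19548-base circle by 1.80 ± 0.55 (adjusted p = 0.0293). nrm (neuromusculin, an adhesion protein) and CG40178 also fell in ratio, by 2.00 ± 0.52 and 1.86 ± 0.46, as did the circle of 7SLRNA:CR32864 described above, which rests on 1 circular read at day 50 and 17 at day 10 (counting ratio 0.0588, interval 0.00141 to 0.376).

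Counted alone, 265 of 1135 circRNAs changed in circular reads between day 50 and day 10 (23.3% called), 127 higher (11.2%) and 138 lower, and 407 of 1189 changed in linear reads (34.2% called), 191 higher (16.1%). With equal library sizes 7 of 395 linear calls were higher, and with library sizes from both kinds of read 72 of 404. For circular reads those splits were 56 of 148 and 169 of 246. CG32698 had the smallest p among falling circles, with 66, 72 and 77 circular reads at day 10, 0, 12 and 7 at day 30 and 8, 1 and 1 at day 50 (log2 -4.21 ± 0.43, adjusted p = 1.08e-10). Linear reads of CG32698 fell too, by 2.39 ± 0.29. sff (a SAD kinase of the synapse) and Plc21C (a phospholipase C) lost circular reads in the same way, with log2 changes of -3.25 ± 0.37 and -3.23 ± 0.42. An unannotated circle on 3R (chr3R:4104964-4110320) had 14, 4 and 6 circular reads at day 10, 59, 232 and 180 at day 30 and 116, 73 and 116 at day 50. The smallest p values for a fall in linear reads belonged to circles of para (a voltage-gated sodium channel), CG42268, galectin and cac (a voltage-gated calcium channel). para had 201, 240 and 188 linear reads at day 10, 25, 70 and 46 at day 30 and 42, 41 and 42 at day 50 (log2 -1.51 ± 0.14, adjusted p = 1.15e-05), while its circular reads ran from 5 to 15 over the 9 libraries (log2 0.15 ± 0.47). The ratio of this para circle rose by 2.29 ± 0.51 (adjusted p = 0.00401).

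**Figure D3:**
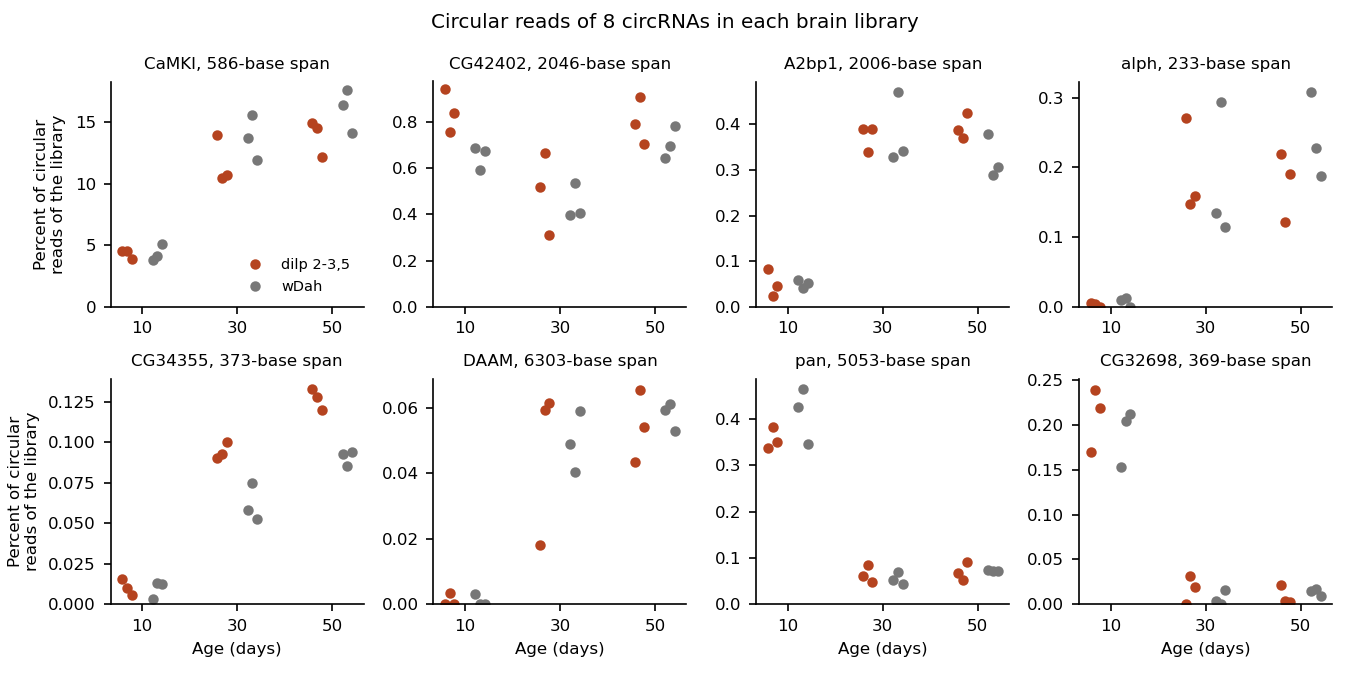
Circular reads of 8 named circRNAs as a percent of all circular reads of the library, 1 point per brain library, by age in days, with dilp 2-3,5 left of wDah at each age. CaMKI, A2bp1, alph, CG34355 and DAAM are low at day 10 and high at days 30 and 50, pan and CG32698 the reverse, in both genotypes, while CG42402 is lowest at day 30.

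The contrast with day 10 varied with the span of the circle. Of the 57 circRNAs tested that span 300 bases or less, 30 (52.6%) changed in circular reads at day 50 against day 10, beside 23.3% of all circRNAs. Of these 30, 26 were upward, and the median log2 change of the class was 1.29. The medians were 0.00, -0.15 and 0.05 for spans of 301 to 1000, 1001 to 5000 and over 5000 bases. In these classes 22.9, 21.5 and 19.7% were called. Against day 30 the medians ran from -0.24 for the shortest class to 0.10 for the longest, and no circle of any class was called. The circles of alph (233 bases) and Caps (137 bases) given above belong to the shortest class. The short circles held 1.81 to 2.21% of circular reads at day 10 and 3.80 to 4.60% at the later ages in dilp 2-3,5 brain, and 1.85 to 2.15% and 3.79 to 4.35% in wDah brain. Short RNAs outside the circRNA table moved likewise. Transcripts under 200 bases held 24.0, 75.9 and 69.3% of the summed FPKM of dilp 2-3,5 brain and 21.3, 73.9 and 74.9% of that of wDah brain at days 10, 30 and 50. The part of these differences in the calls against day 10 was not tested. Without the short circles, an alternative chosen after seeing the data, the calls in ratio at day 50 against day 10 were 142 of 1077. Of these 136 were higher. With the short circles the calls were 168 of 1134.

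**Figure D4:**
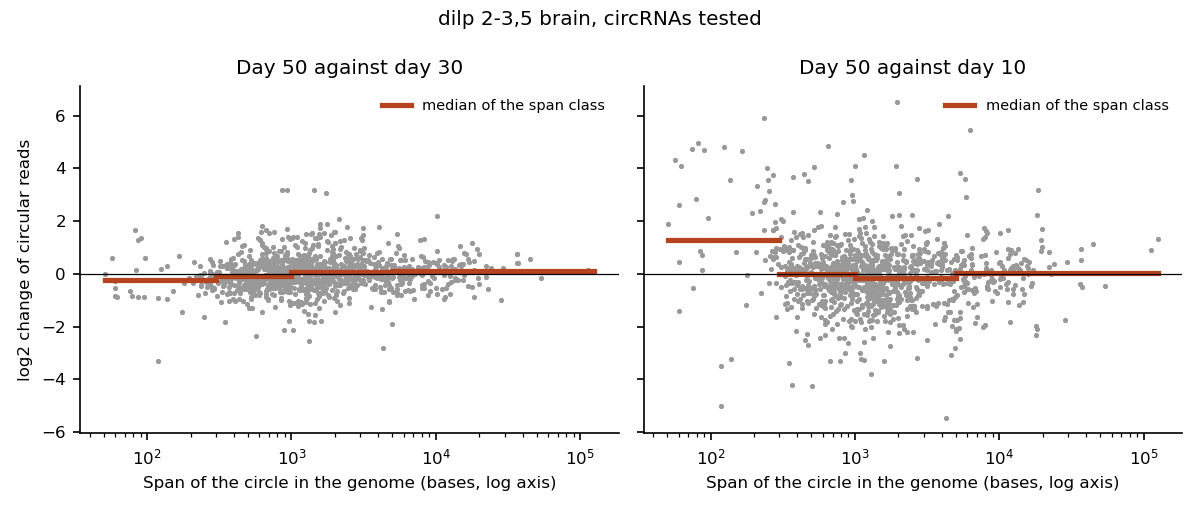
The log2 change of circular reads in dilp 2-3,5 brain against the span of the circle in the genome (bases, log axis), 1 point per circRNA, for day 50 against day 30 (left) and against day 10 (right), with the median of each of 4 span classes as a bar. The bar of the class up to 300 bases stands at -0.24 on the left and at 1.29 on the right.

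Circles were also grouped by the known role of the host, and 0 circRNAs of any of 7 lists passed in ratio between day 50 and day 30. Against day 10, with 14.8% of all circRNAs called and a median of 0.52, the ratio rose in 12 of 61 circles of synaptic vesicle and active zone genes (0 fell, median 0.46) and in 10 of 53 circles of RNA-binding proteins (0 fell, median 0.65). Circles of cell adhesion and guidance genes had 15 of 90 up and 1 down (median 0.74), and those of kinases and signalling 12 of 72 up and 1 down (median 0.67). Ion channels had 7 of 80 up and 0 down (median 0.38), receptors for transmitters and neuropeptides 7 of 51 up and 0 down (median 0.47), and transcription and chromatin factors 7 of 114 up and 1 down (median 0.30). The upward calls against day 10 fell on 131 of the 667 host names in the table. Sap47 and bl (a KH-domain RNA-binding protein) had all 3 of their tested circles among those that rose. GluClalpha, a glutamate-gated chloride channel, had 3 of 8.

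The change from day 30 to day 50 in dilp 2-3,5 brain was also set against that in wDah brain. None of 1138 circRNAs differed in it (0% called, edgeR interaction term), 42 had an unadjusted p under 0.05, and DESeq2 called 0, with 18 under 0.05. wDah brain by itself gave 0 calls of 1140, 84 at an unadjusted p under 0.05 and a median log2 ratio of 0.19. The smallest p belonged to A2bp1, to a 3118-base circle with 2, 2 and 0 reads at day 30 and 8, 3 and 5 at day 50 in dilp 2-3,5 brain against 12, 7 and 17 at day 30 and 4, 3 and 7 at day 50 in wDah brain. The difference in its log2 change was 3.39 ± 0.91 (adjusted p = 0.680). For CaMKI the difference was 0.04 ± 0.20 and for alph -0.08 ± 0.39 (SE; adjusted p = 0.991 each), and smaller differences could not be resolved.

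The sfl circle and the 759-base btsz circle, named for the study's interest in these genes, had more reads in every mutant library than in any wDah library of the same age, a difference not tested here. sfl, a heparan sulfate N-deacetylase/N-sulfotransferase, had 81, 58 and 72 circular reads at day 10, 30, 45 and 35 at day 30 and 62, 32 and 38 at day 50 in dilp 2-3,5 brain, and 6 to 20 in every wDah library. The 759-base circle of btsz, a synaptotagmin-like protein, had 510, 451 and 330, then 39, 211 and 186, then 160, 200 and 248 reads in dilp 2-3,5 brain, against 59 to 170 reads at day 10 and 8 to 15 later in wDah brain. The genotypes overlapped at the second btsz circle, of 3794 bases, with 12, 13 and 9 reads at day 10, 1, 4 and 6 at day 30 and 5, 4 and 5 at day 50 in dilp 2-3,5 brain, and 7, 9 and 11, then 2, 0 and 2, then 2, 3 and 10 in wDah brain. Neither the sfl nor the 759-base btsz ratio passed the test for day 50 against day 30 in dilp 2-3,5 brain (log2 0.29 ± 0.39 for sfl and 0.23 ± 0.27 for btsz, adjusted p = 0.984 each). Pkn, a protein kinase of the PKC-related class, had a log2 ratio of 0.21 ± 0.29 and fewer circular reads at day 50 than at day 10 (log2 -0.98 ± 0.18, adjusted p = 4.82e-05).

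Linear transcripts were compared through the 1 pooled FPKM and its 95% limits for each age, so no test across replicates was possible. A transcript was counted as changed when it differed at least 2-fold on log2(FPKM + 1), which understates changes of low transcripts, and its limits did not overlap. Between day 50 and day 30, 92 of 16548 transcripts were higher (0.556%) and 62 lower (0.931% in both directions). Of 304 transcripts under 200 bases, 15 were higher and 44 lower, and of the 16244 longer ones 77 were higher and 18 lower. Against day 10, 1235 of 17275 (7.15%) differed at day 50 and 1564 of 17246 (9.07%) at day 30.

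Antimicrobial peptide genes stood out between day 30 and day 50. These genes are induced by the Toll and Imd pathways, best known from fat body and blood cells, and encode secreted peptides that kill bacteria and fungi. Of 33 immune genes measured, 9 had a transcript past the threshold upward and 0 downward, with a median log2 difference of 0.55 over 52 transcripts beside -0.02 over all transcripts. Summed over the transcripts of each gene, 12 of 33 were at least 2-fold higher, and over all genes 93 of 9347 were. Dpt, a diptericin against Gram-negative bacteria, was at 1.28, 2.17 and 29.3 FPKM at days 10, 30 and 50 (limits 19.1 to 39.5 at day 50 and 0.447 to 3.89 at day 30). Its neighbour DptB was at 3.12, 4.48 and 42.9 FPKM.

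The cecropin CecA1 was at 1.20, 2.58 and 27.2 FPKM, the antifungal Drs (drosomycin) at 10.4, 17.9 and 81.5 FPKM, and IM18 at 1.29, 4.45 and 45.5 FPKM. AttC (15.7, 15.5 and 49.5 FPKM) and Dro (drosocin; 2.92, 4.97 and 21.2 FPKM) were higher at day 50 as well. Mtk (metchnikowin), the most abundant at 204, 746 and 1322 FPKM, did not pass, since its limits of 546 to 2098 at day 50 overlapped those of 251 to 1241 at day 30. In wDah brain the same transcripts stood higher at each age, for instance Dpt at 34.4, 28.2 and 189 FPKM and Drs at 66.4, 77.5 and 248 FPKM. Marker sums of other tissues at day 50 and day 30 were 96.4 and 80.9 FPKM for 5 hemocyte genes, of which 4 were higher, and 6164 and 8280 FPKM for 7 fat body genes, of which 2 were higher. All 6 gut genes (121 and 85.6 FPKM) and all 8 muscle genes (133 and 84.0 FPKM) were higher at day 50. The part of these tissues in the immune difference was not tested.

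**Figure D5:**
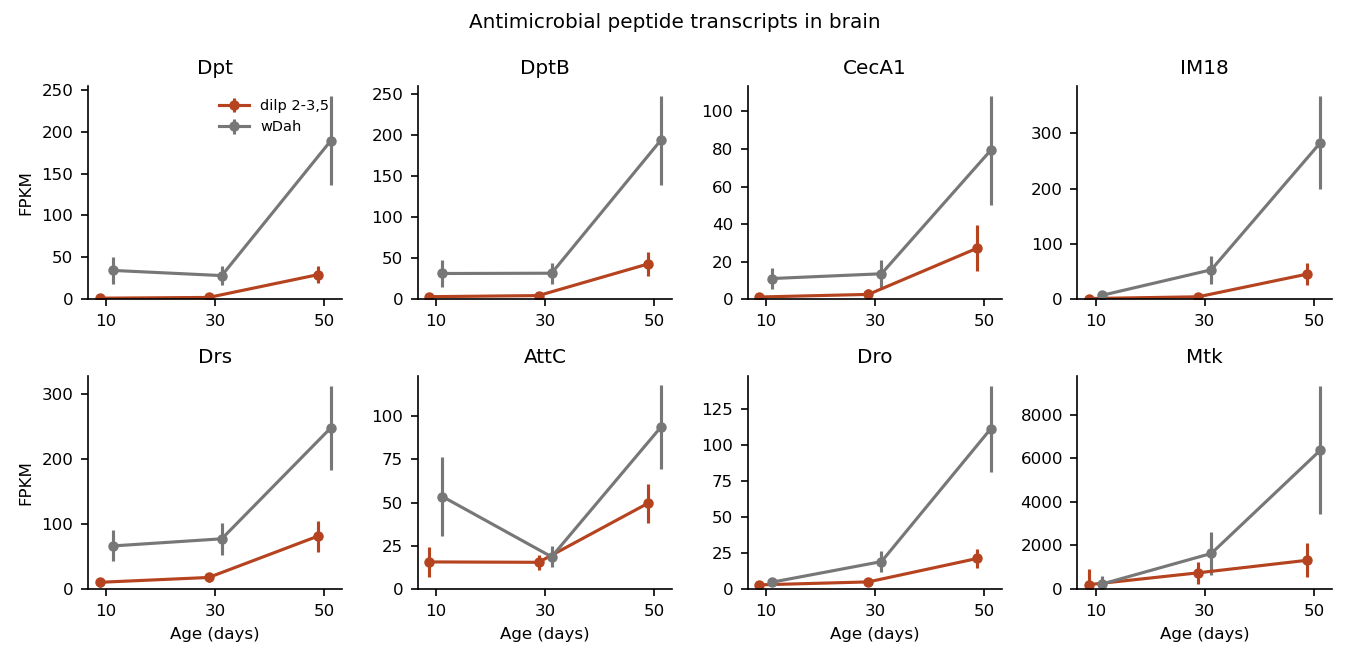
FPKM of 8 antimicrobial peptide transcripts in brain at 10, 30 and 50 days, 1 pooled value per genotype and age, with bars for the 95% limits of the deposited table; dilp 2-3,5 points stand left of wDah points. In dilp 2-3,5 brain Dpt is at 2.17 FPKM at day 30 and 29.3 FPKM at day 50, and all 8 are higher in wDah than in dilp 2-3,5 brain at day 50.

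Outside immunity few members of the lists moved between day 30 and day 50. Hsp22, a small mitochondrial heat shock protein that marks old flies, was the 1 of 18 chaperone genes past the threshold, at 6.25, 26.1 and 89.1 FPKM. GstE1, a glutathione transferase, was the 1 of 27 antioxidant and detoxification genes, at 93.6, 112 and 226 FPKM. In the insulin pathway 1 isoform of foxo was higher (3.65, 0.00273 and 1.68 FPKM, at 3.99, 0.415 and 3.84 FPKM in wDah), out of 20 genes. The sum over the isoforms of foxo hardly moved in the mutant, at 15.1 FPKM at day 30 and 15.8 FPKM at day 50. In the synaptic list 1 of 23 genes had an isoform past the threshold, Snap25, which was lower at day 50 (103, 275 and 130 FPKM, at 76.2, 216 and 73.5 FPKM in wDah). No member passed among 26 neuropeptide, 12 clock, 15 heparan sulfate, 31 splicing, 13 memory, 82 ribosomal, 11 respiratory chain and 32 proteasome genes. The 11 respiratory chain genes were SdhA, SdhB, SdhC, RFeSP, Cyt-c-p, ox and genes of ATP synthase. No nuclear subunit of complex I or IV was among them.

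Ranked by size over all transcripts of at least 5 FPKM, the first 8 in each direction were small nucleolar, transfer, spliceosomal and ribosomal RNAs under 200 bases. Each of the upward ones was listed at 0 FPKM at day 30 and all but snRNA:U2:34ABc of the downward ones at 0 at day 50. Among longer transcripts the upward ones were Dpt, IM18, DptB and CecA1 with single isoforms of Hmgs, tho2, mbf1 and Fatp. The Hmgs isoform (0.00156 FPKM at day 30 and 11.7 at day 50) belongs to a gene whose sum hardly moved, at 28.1, 29.8 and 35.9 FPKM. Likewise the sums of tho2 were 13.5, 11.0 and 12.7 FPKM and those of mbf1 24.1, 25.0 and 25.4 FPKM. Fatp, a fatty acid transport protein, was at 23.7, 0.602 and 10.2 FPKM in dilp 2-3,5 brain and at 36.4, 10.8 and 27.3 FPKM in wDah brain.

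The longer transcripts that were lower at day 50 included Ilp1, an insulin-like peptide that the mutation leaves intact. It was at 45.9, 17.3 and 6.27 FPKM in dilp 2-3,5 brain and at 0.896, 2.39 and 0.707 FPKM in wDah brain. CG14645 was at 1118, 1400 and 604 FPKM in dilp 2-3,5 brain and at 5056, 2888 and 986 FPKM in wDah brain. For mt:ND6, a mitochondrial subunit of complex I, dilp 2-3,5 brain had 8.37, 25.8 and 7.08 FPKM. In wDah brain mt:ND6 had 12.65, 28.5 and 6.32 FPKM. An isoform of CG42402 was listed at 5.42 FPKM at day 30 and at 0.00017 FPKM at day 50, while the sum over the isoforms of that gene was higher at day 50, as given above. A further pair was chosen after its values were seen. ImpL3, the lactate dehydrogenase, summed to 2.35, 5.48 and 20.6 FPKM and Gnmt, the glycine N-methyltransferase that lowers S-adenosylmethionine, to 9.93, 5.12 and 29.0 FPKM in dilp 2-3,5 brain. In wDah brain they were at 3.43, 4.93 and 10.3 FPKM and at 3.75, 4.64 and 25.6 FPKM.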

How the data were processed

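Brain total RNA was depleted of rRNA and sequenced as single-end reads on an Illumina HiSeq. The authors mapped reads to BDGP6 with STAR 2.5.2b and deposited whole-number counts of circular reads and of linear reads at the same positions, called by DCC and kept at a minimum of reads over the series. They deposited FPKM per transcript from HISAT2 2.0.4, StringTie 1.3.0, Cufflinks and Cuffdiff 2.2.1, as 1 value with 95% limits for each genotype and age. Whether counting used strand is not given in the sources used here.

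Counts were fitted over the 9 dilp 2-3,5 libraries with edgeR 4.0.16 in R 4.3.3 (quasi-likelihood F test, Benjamini-Hochberg adjustment over all circRNAs tested, threshold 0.05, at least 10 reads of each kind). For the ratio, circular and linear reads of a library were 2 columns with a term per library. Circular and linear reads alone were scaled by TMM. The genotype difference used the 12 libraries of days 30 and 50 of both genotypes. DESeq2 1.42.0 was an alternative. FPKM were compared as log2(FPKM + 1), from 1 FPKM at either age, counting at least 2-fold changes with limits apart; entries with a failed status were dropped. Scripts were tested on simulated data. No libraries were duplicates. Other tissues and the polysome libraries were not used. Columns of comparisons made by the authors were not used.

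Named genes were the smallest p values per contrast and direction, the 6 largest circles, those of sfl, CaMKI, Pkn, btsz and mbl, and the largest FPKM differences from 5 FPKM. Members, lists and tests were chosen with earlier results of these data known. Intervals cover counting error only.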

Additional observations from a re-analysis of the deposited data

How the results depend on the processing

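Precision is limited by 3 libraries per age and by low counts of single circles, and the FPKM have no replicate values. The absence of calls in ratio and in circular reads at day 50 against day 30, and in the genotype difference, held in every alternative run, with any library left out. Replicate numbers did not pair the samples: deviations of same-numbered libraries in circular reads correlated between -0.117 and 0.0625 over 9 pairs. With the replicate block the ratio had 182 calls against day 10 at day 50 and 145 at day 30, circular reads 263 and linear reads 454, and no count at day 50 against day 30 left 0.

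DESeq2 gave 105 calls in ratio at day 50 and 53 at day 30 against day 10, 175 in circular reads at day 50 against day 10 and 19 in linear reads at day 50 against day 30. Equal library sizes gave 148 circular calls against day 10 and 2 linear calls against day 30. A fit of the 6 libraries of 2 ages gave 67 calls in ratio at day 30 against day 10 and 34 linear calls at day 50 against day 30. Leaving out single libraries, the ratio had 77 to 222 calls at day 50 against day 10 (90 without the first and 77 without the third day 50 library) and 44 to 122 at day 30 against day 10 (62 without the first and 44 without the third day 30 library), and linear reads at day 50 against day 30 had 0 to 7 (7 without the first and 1 without the second day 10 library). A pseudocount of 5 left 96, 763 and 1034 transcripts past the threshold for day 50 against day 30, day 50 against day 10 and day 30 against day 10, and transcripts of 200 bases or more alone left 95 for the first, an alternative chosen after seeing the data. The cause of these shifts was not tested. Scaling circular and linear columns separately turned the median log2 ratio against day 10 to -0.09 at day 50 and -0.06 at day 30, with more calls lower (88 and 79) than higher (81 and 63). With library sizes from both kinds of read, circular calls against day 10 were 169 higher and 77 lower, against 127 and 138 with TMM.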
